A study of Mus musculus with 10 samples.

Results

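The 10 genes described here encode ligands, receptors and membrane proteins of noncanonical Wnt signaling and planar cell polarity: the ligands Wnt5a, Wnt5b and Wnt11, the receptors Ror1, Ror2, Ryk and Ptk7, and the polarity proteins Vangl1, Vangl2 and Celsr1. They were taken by gene name from a matrix of 16875 genes measured by RNA sequencing in 10 mouse colon tumors, and all 10 were found in it. Each gene was compared between 5 control and 5 Villin-WlscKO tumors. In these tumors Ptk7, Vangl2 and Wnt5b were lower in the Villin-WlscKO group, whose epithelium had lost Wls. No member passed the test as higher, and 7 of the 10 did not pass. Among all genes tested, 10.9% passed, 6.12% as higher and 4.75% as lower. The groups also differed in sex-linked transcripts and possibly in tamoxifen, so these differences cannot be assigned to the loss of Wls alone.

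Noncanonical Wnt signaling is the name for responses to Wnt ligands that do not run through stabilized β-catenin. Wnt5a, Wnt5b and Wnt11 are its typical ligands, and they are received by Frizzled proteins together with the tyrosine kinase-like proteins Ror1, Ror2, Ryk and Ptk7. A related system, planar cell polarity, aligns cells within the plane of an epithelium through the membrane proteins Vangl and Celsr. In the gut, Wnt5a is known mainly as a product of the mesenchyme beneath the epithelium. Every Wnt ligand needs the carrier protein Wls (Wntless) to leave the cell that makes it.

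All tumors were induced in C57BL/6 mice with the carcinogen azoxymethane (AOM) followed by 3 cycles of 2% dextran sulfate sodium (DSS), which damages the colon lining, and the mice were 6 to 10 weeks old at the start. Control animals carried Wls flox/flox alleles, with no Cre named in the labels, and Villin-WlscKO animals carried the same floxed alleles with Villin-Cre ERT2, a tamoxifen-activated recombinase driven in gut epithelium. Tamoxifen was given in 5 injections, the first 30 days before collection, so that Wls was removed from tumors already established. The study describes controls with intact Wnt secretion as free of tamoxifen unless stated otherwise, so the deletion and the drug cannot be told apart in this comparison. Villin-Cre ERT2 leaves Wls intact in stroma, and the tumors were macrodissected, so each library holds epithelium and stroma together, and fewer cells of a type cannot be told apart from less RNA per cell. How many mice the 5 tumors of a group came from is not given in the sources used here, and the p-values measure the spread between tumors.

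Control tumors held Wls itself at 72.9 ± 7.06 FPKM and Villin-WlscKO tumors at 6.37 ± 4.89 FPKM (SD, n = 5 each), where FPKM is the number of sequenced fragments scaled by transcript length and by the size of the library. Villin-WlscKO tumors 2 and 3 retained the most Wls, at 11.6 and 11.7 FPKM, and they alone held high Krt5, a keratin of squamous epithelium, at 470 and 669 FPKM against at most 0.315 FPKM in the other tumors. The groups also differed in sex-linked transcripts. Xist was at 439 to 701 FPKM in Villin-WlscKO tumors and no higher than 0.420 FPKM in controls. Eif2s3y, carried on the Y chromosome, was at 30.4 to 46.6 FPKM in controls and no higher than 0.138 FPKM in Villin-WlscKO tumors. Sex and genotype therefore cannot be told apart. The epithelial markers Epcam, Krt8, Vil1, Cdx1 and Cdx2 were present in every tumor. No read numbers could be recovered from the FPKM values, so depth is unknown.

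Changes are given on the scale of log2(FPKM + 1) as Villin-WlscKO minus control, which understates the change of genes with low values, and p-values come from limma, adjusted by the Benjamini-Hochberg method over the 16757 genes with a mean of at least 0.5 FPKM. Of all genes tested, 10.9% passed an adjusted p of 0.05, with 6.12% higher and 4.75% lower. Higher calls made up 56.3% of all calls, 77.1% with equal FPKM sums in all tumors, and 44.3% after quantile normalization. All 10 members were tested, and 3 of them (30%) passed, each lower in Villin-WlscKO tumors. The same 3 genes had groups that did not overlap, against 10.1% of all genes tested (5.33% higher and 4.76% lower). The median change of the 10 members was -0.14, and that of all genes was 0.0073. At an unadjusted p under 0.05 there were 5 members, namely Ptk7, Vangl2, Wnt5b, Wnt11 and Celsr1, against 25.7% of all genes tested (4308 of 16757). Without Villin-WlscKO tumors 2 and 3, Ptk7 and Vangl2 still passed, whereas Wnt5b reached an adjusted p of 0.0501.

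**Figure D1:**
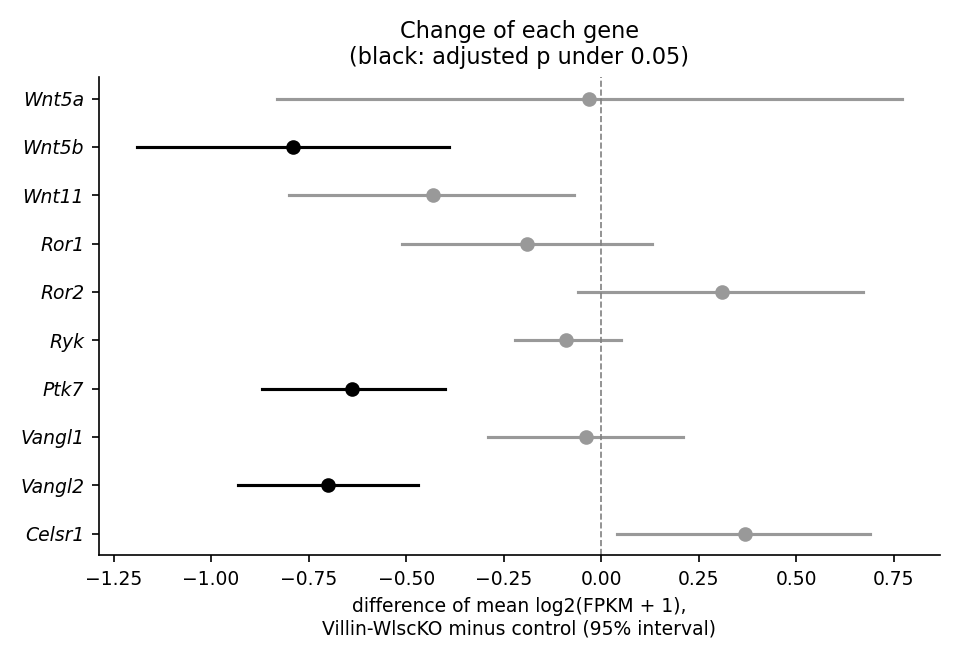
Change of each of the 10 genes as Villin-WlscKO minus control in log2(FPKM + 1), with its 95% interval from limma and black marks for an adjusted p under 0.05. The intervals of Ptk7, Vangl2, Wnt5b and Wnt11 lie below 0 and that of Celsr1 above it, of which the first 3 passed after adjustment, and Ryk has the narrowest interval, from -0.22 to 0.05.

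Promoter sequence is shown for the 3 genes that fell and for Wnt11, the ligand whose main start region holds a TCF/LEF core. Each window is the 250 bases before a RefSeq transcript start on GRCm38.p6, written 5′ to 3′ on the gene's own strand. Windows were found for 7 of the 10 members, 10 windows in all, and none was given for Wnt5a, Vangl1 and Celsr1. Capitals mark GGGCGG, the core of the GC box bound by Sp1-type factors, and CTTTGNN with A or T at each N, the core recognized by TCF and LEF factors, each searched on both strands. Wnt5b is read from chr6:119544348-119544597 (minus strand), Ptk7 from chr17:46629505-46629754 (minus strand), Vangl2 from chr1:172027296-172027545 (minus strand) and Wnt11 from chr7:98834862-98835111 (plus strand).
Wnt5b: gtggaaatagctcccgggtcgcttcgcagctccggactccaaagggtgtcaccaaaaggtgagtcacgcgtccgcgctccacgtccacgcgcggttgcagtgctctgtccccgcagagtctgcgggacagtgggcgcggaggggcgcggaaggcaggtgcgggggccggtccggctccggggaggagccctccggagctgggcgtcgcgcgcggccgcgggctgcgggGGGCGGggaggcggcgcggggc
Ptk7: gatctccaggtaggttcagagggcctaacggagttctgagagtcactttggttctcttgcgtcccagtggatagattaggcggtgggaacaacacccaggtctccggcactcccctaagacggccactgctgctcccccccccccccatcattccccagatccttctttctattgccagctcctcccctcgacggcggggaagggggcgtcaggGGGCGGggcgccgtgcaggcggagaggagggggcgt
Vangl2: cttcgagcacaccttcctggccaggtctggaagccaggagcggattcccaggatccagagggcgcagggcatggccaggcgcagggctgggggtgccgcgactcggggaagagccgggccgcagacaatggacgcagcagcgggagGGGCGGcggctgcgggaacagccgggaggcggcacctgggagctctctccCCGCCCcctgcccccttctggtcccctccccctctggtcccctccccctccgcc
Wnt11: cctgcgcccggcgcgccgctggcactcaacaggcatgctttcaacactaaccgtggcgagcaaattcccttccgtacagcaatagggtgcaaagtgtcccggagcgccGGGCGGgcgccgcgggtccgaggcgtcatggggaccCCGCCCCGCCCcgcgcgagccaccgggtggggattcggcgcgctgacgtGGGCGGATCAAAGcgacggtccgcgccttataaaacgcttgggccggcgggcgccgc
The Wnt5b window above held 1 GC box and 35 CpG dinucleotides at 75.2% GC. For Ptk7 the window held 1 GC box and 14 CpG dinucleotides at 64.0% GC. Vangl2, whose RefSeq start lies 1149 bases inside the start of the GENCODE gene, had 2 GC boxes and 18 CpG dinucleotides at 73.6% GC. These 3 windows held no TCF/LEF core. The Wnt11 window was printed because it holds such a core, and it also had 4 GC boxes and 37 CpG dinucleotides at 70.8% GC. Of the further Wnt5b windows, chr6:119467212-119467461 held no GC box and no TCF/LEF core, and chr6:119449387-119449636 held 2 GC boxes and a TCF/LEF core. In all, 2 of the 10 member windows had this core, against 14.8% of all 32851 windows of the same length. GC boxes were present in 8 of the 10 member windows, against 32.7% of all windows. The median of all windows was 6 CpG dinucleotides and 52.4% GC, and the member windows had 53.2 to 75.2% GC. Whether base composition accounts for the GC boxes was not tested. These matches describe letters in the windows, and no binding was measured.

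Among the ligands, Wnt5b passed the test and fell, and Wnt5a and Wnt11 did not pass. Wnt5b (GRCm38 chr6:119432531-119544347, minus strand) was 5.43, 3.61, 4.04, 5.87 and 3.87 FPKM in control tumors 1 to 5, and was 3.12, 2.66, 2.39, 1.76 and 1.31 FPKM in Villin-WlscKO tumors 1 to 5. The highest Villin-WlscKO tumor, number 1, lay under the lowest control, number 2. The mean went from 4.57 ± 1.01 to 2.25 ± 0.718 FPKM (SD, n = 5 each), which is 49.2% of the control mean. Its change was -0.79 (SE 0.18, 95% interval -1.19 to -0.39, limma adjusted p = 0.0195). Without Villin-WlscKO tumors 2 and 3 the change was -0.89 with an adjusted p of 0.0501, the only setting of 20 alternatives in which it did not pass. Wnt5b overlaps Fbxl14 on the opposite strand. The library kit preserves strand, but whether the quantification used it is not stated, so reads of the pair may be mixed. No other member overlaps a protein-coding gene. Ptk7 overlaps Gm26904, Wnt5a Gm2670, Wnt11 Gm8398, Vangl1 Gm16160 and Ror1 Gm12706 on the opposite strand. Ror1 also overlaps Gm12701, and Ryk overlaps Gm47427, on the same strand. Fbxl14 stood at 27.6 ± 1.15 FPKM in controls against 25.5 ± 2.94 FPKM after deletion (change -0.12, limma adjusted p = 0.411).

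Wnt5a (chr14:28504750-28527448, plus strand), the ligand most studied for signaling through Ror receptors, was the most abundant of the 3 and varied widely between tumors of either group. Its values were 11.2, 6.03, 13.7, 12.4 and 4.33 FPKM in the control tumors and 8.57, 10.5, 10.8, 13.0 and 3.45 FPKM in the Villin-WlscKO tumors. The groups overlapped over almost their whole range, and the highest tumor exceeded the lowest 3.16 times in controls and 3.78 times in Villin-WlscKO tumors. Its change was -0.03 (SE 0.36, 95% interval -0.83 to 0.77, limma adjusted p = 0.975), so this interval still holds changes of the size seen for Wnt5b. The sign of this change turned positive without control tumor 1, 3 or 4 (0.05, 0.12 and 0.08) and without Villin-WlscKO tumor 5 (0.25), with equal FPKM sums (0.07) and with tumor quality weights (0.16).

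Wnt11 (chr7:98835112-98855195, plus strand), a ligand known from convergent extension movements, was low throughout. It was 2.1, 1.03, 1.60, 1.29 and 1.15 FPKM in the control tumors and 0.677, 1.11, 1.18, 0.675 and 0.393 FPKM in the Villin-WlscKO tumors. Villin-WlscKO tumors 1, 4 and 5 were below every control, and tumors 2 and 3 lay within the control range. The change was -0.43 (SE 0.16, 95% interval -0.80 to -0.07, unadjusted p = 0.0246, limma adjusted p = 0.126) and it passed in none of 20 alternatives (adjusted p = 0.0557 to 0.237). As a log2 ratio of mean FPKM, without the added 1, it was -0.83.

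**Figure D2:**
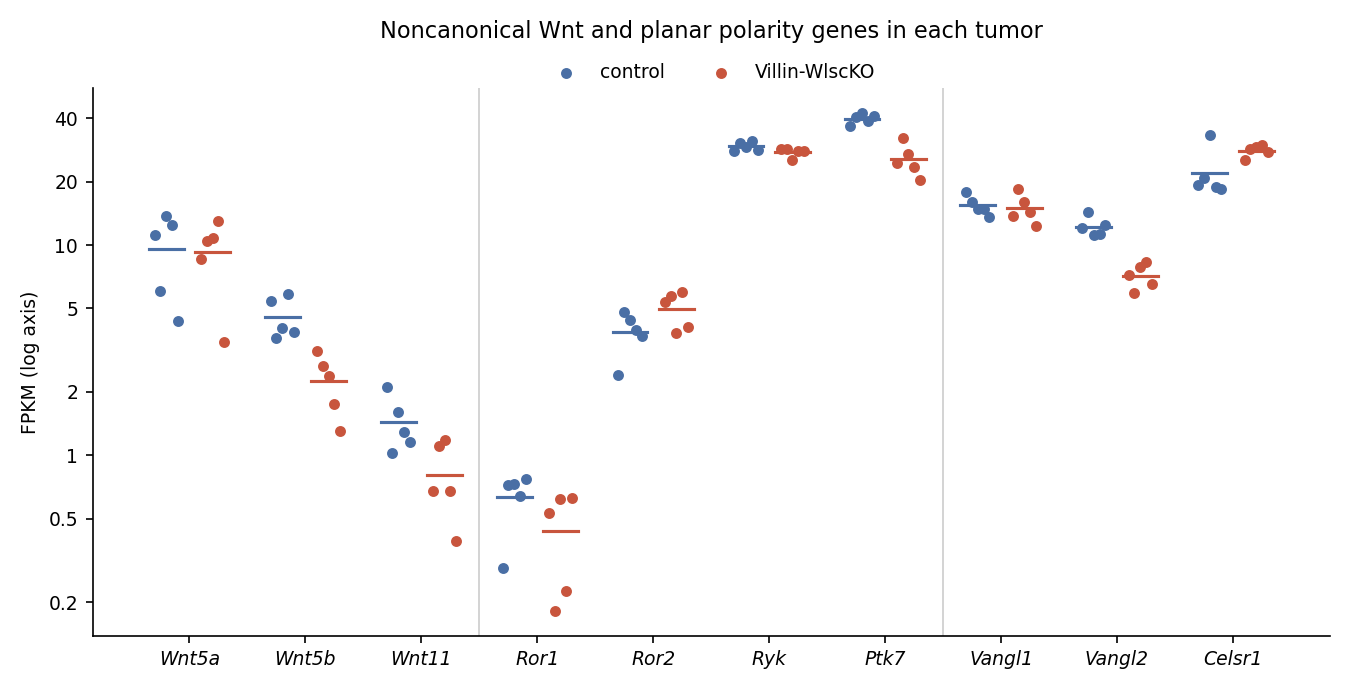
FPKM of each gene in every tumor on a log axis, control and Villin-WlscKO side by side, with a horizontal bar at each group mean. The groups are separate for Wnt5b, Ptk7 and Vangl2, and Celsr1 shows 1 control tumor at 33.3 FPKM above all Villin-WlscKO tumors.

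Of the receptors, Ptk7 fell and the other 3 did not pass. Ptk7 (chr17:46564471-46629504, minus strand), a catalytically inactive receptor tyrosine kinase that acts in planar polarity, was 36.7, 40.6, 42.4, 39.0 and 40.9 FPKM in the control tumors and 24.5, 32.2, 27.2, 23.6 and 20.4 FPKM in the Villin-WlscKO tumors. The highest Villin-WlscKO tumor, number 2, stayed below the lowest control. Mean levels were 39.9 ± 2.17 and 25.6 ± 4.42 FPKM (SD, n = 5 each), so that Villin-WlscKO tumors held 64.1% of the control mean. Ptk7 changed by -0.64 (SE 0.11, 95% interval -0.87 to -0.40, limma adjusted p = 0.00458). It passed in 21 of 21 alternatives, with changes from -0.78 to -0.53 and adjusted p from 0.00127 to 0.0268.

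Ror2 (chr13:53109312-53286124, minus strand), a receptor tyrosine kinase for Wnt5a, was 2.41, 4.81, 4.39, 3.95 and 3.70 FPKM in the control tumors and 5.34, 5.74, 3.81, 5.95 and 4.07 FPKM in the Villin-WlscKO tumors. Villin-WlscKO tumors 1, 2 and 4 were above every control. The change of 0.31 (SE 0.17, 95% interval -0.06 to 0.67, limma adjusted p = 0.274) did not pass.

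Ror1 (chr4:100095791-100444765, plus strand), its paralog, was at 0.290, 0.722, 0.732, 0.641 and 0.772 FPKM in the control tumors and at 0.530, 0.182, 0.616, 0.227 and 0.628 FPKM in the Villin-WlscKO tumors, and the groups overlapped. At a change of -0.19 (SE 0.14, 95% interval -0.51 to 0.13, limma adjusted p = 0.464), no difference was detectable at these low levels.

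Ryk (chr9:102834917-102908305, plus strand), a Wnt-binding protein without active kinase function, was the steadiest of the 10 genes. It was 28.1, 30.5, 29.3, 31.2 and 28.2 FPKM in the control tumors and 28.5, 28.6, 25.4, 27.9 and 28.1 FPKM in the Villin-WlscKO tumors. The groups overlapped between 28.1 and 28.6 FPKM. Its SD was 4.73% of the mean in controls and 4.79% in Villin-WlscKO tumors. The change was -0.09 (SE 0.060, 95% interval -0.22 to 0.05, limma adjusted p = 0.408), and 0.02 when the FPKM sums were made equal.

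Of the polarity proteins, Vangl2 fell, whereas Vangl1 and Celsr1 did not pass. Vangl2 (chr1:172000960-172028444, minus strand), a core planar polarity protein with several membrane spans, was 12.0, 14.3, 11.2, 11.3 and 12.4 FPKM in the control tumors and 7.17, 5.91, 7.84, 8.30 and 6.52 FPKM in the Villin-WlscKO tumors. No tumor of either group entered the range of the other. Its mean went from 12.2 ± 1.24 to 7.15 ± 0.968 FPKM (SD, n = 5 each), or 58.4% of the control mean. The change was -0.70 (SE 0.10, 95% interval -0.93 to -0.47, limma adjusted p = 0.00211). Vangl2 passed in 21 of 21 alternatives, with changes from -0.78 to -0.59 and adjusted p from 0.00168 to 0.0222.

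Vangl1 (chr3:102153583-102204693, minus strand), the paralog of Vangl2, was 17.9, 16.0, 14.8, 14.8 and 13.6 FPKM in the control tumors and 13.8, 18.5, 16.1, 14.4 and 12.3 FPKM in the Villin-WlscKO tumors. The highest and the lowest tumor of all 10 were both Villin-WlscKO. The change was -0.04 (SE 0.11, 95% interval -0.29 to 0.21, limma adjusted p = 0.854), and the interval does not reach the -0.70 of Vangl2. Its sign turned positive without control tumor 1 (0.01) or Villin-WlscKO tumor 5 (0.02), and with equal FPKM sums (0.06).

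Celsr1 (chr15:85898929-86033777, minus strand), an atypical cadherin that joins the polarity complexes of neighboring cells, was 19.2, 20.9, 33.3, 18.8 and 18.4 FPKM in the control tumors and 25.3, 28.5, 29.2, 29.8 and 27.7 FPKM in the Villin-WlscKO tumors. All 5 Villin-WlscKO tumors were above 4 of the 5 controls, and control tumor 3 was above all of them. The change was 0.37 (SE 0.15, 95% interval 0.04 to 0.69, unadjusted p = 0.0312, limma adjusted p = 0.146). Without control tumor 3 it was 0.52 with an adjusted p of 0.00215, the only setting of 21 alternatives in which it passed.

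Related genes were then set against each other within each tumor, since a call for a gene and not for its partner does not show that they changed unequally. For 3 pairs, the difference between the partners in log2(FPKM + 1) was compared between groups by an exact two-sided permutation test over the 252 arrangements of the tumors, with p adjusted over the 3 pairs.

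Vangl1 exceeded Vangl2 in all 10 tumors, and by more in the Villin-WlscKO tumors. The ratio of their FPKM was 1.49, 1.12, 1.32, 1.31 and 1.10 in the control tumors and 1.93, 3.12, 2.05, 1.74 and 1.88 in the Villin-WlscKO tumors, with no overlap. On the log2 scale the difference went from 0.31 ± 0.17 to 0.97 ± 0.30 (SD, n = 5 each), a shift of 0.66 (exact permutation p = 0.00794, the smallest this design allows, adjusted p = 0.0238). Without Villin-WlscKO tumors 2 and 3 the shift was 0.49, and its exact permutation p of 0.0179 was the smallest that 5 against 3 tumors allow, which adjusts to 0.0536 for a single pair of the 3.

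Wnt5a exceeded Wnt5b in all 10 tumors as well. Their FPKM ratio was 1.12 to 3.39 in controls and 2.63 to 7.43 in Villin-WlscKO tumors, and the ranges overlapped. The log2 difference was 0.83 ± 0.52 in controls and 1.59 ± 0.54 in Villin-WlscKO tumors, a shift of 0.76 that did not pass after adjustment (exact permutation p = 0.0476, adjusted p = 0.0635). It passed in 3 of 16 alternatives, over which the exact permutation adjusted p was 0.0357 to 0.196. These were without control tumor 3 (0.94, adjusted p = 0.0357), without Villin-WlscKO tumor 5 (0.92, adjusted p = 0.0397) and with a pseudocount of 0.1.

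Ror1 was the lower partner of Ror2 in every tumor. Their FPKM ratio was 0.120 to 0.209 in controls and 0.0318 to 0.162 in Villin-WlscKO tumors, with overlap. The log2 difference, which the added 1 compresses at the low values of Ror1, was -1.56 ± 0.15 in controls and -2.06 ± 0.45 in Villin-WlscKO tumors. The shift of -0.50 did not pass (exact permutation p = 0.0635, adjusted p = 0.0635). It passed in 2 of 16 alternatives, over which the shift was -0.88 to -0.38 and the exact permutation adjusted p was 0.0238 to 0.125. Leaving out Villin-WlscKO tumor 3 gave -0.62 (adjusted p = 0.0238), and leaving out Villin-WlscKO tumor 5 gave -0.60 (adjusted p = 0.0397).

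**Figure D3:**
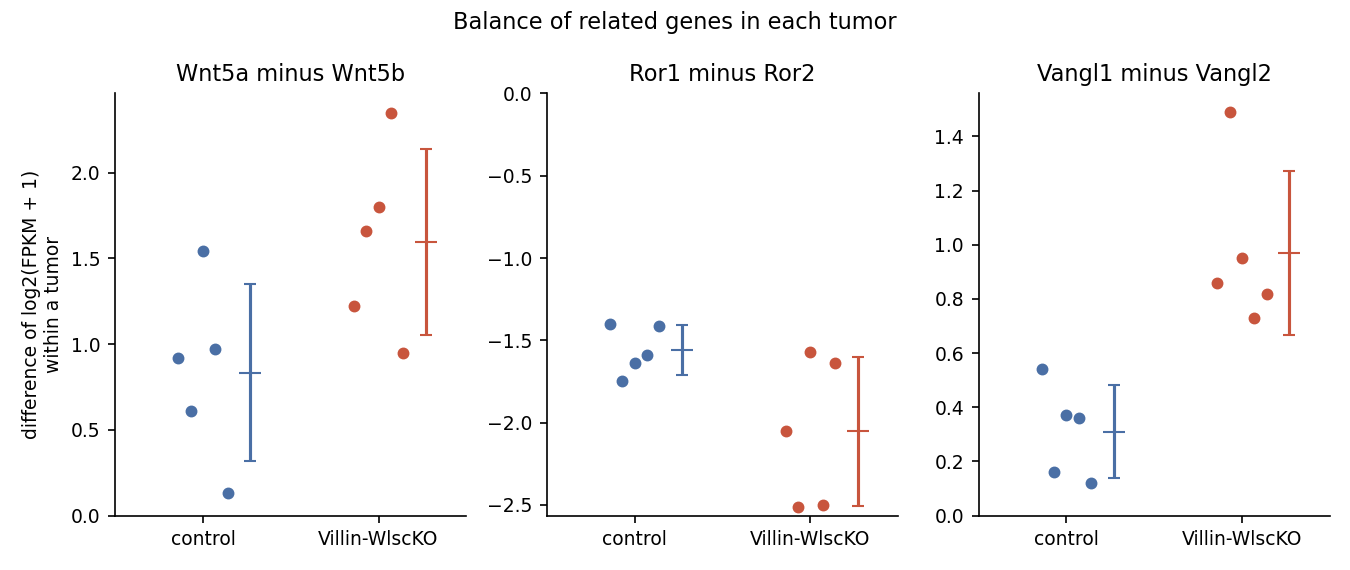
Difference in log2(FPKM + 1) between the partners of each pair within every tumor, with the mean and SD of each group. The Vangl1 and Vangl2 points of the 2 groups are separate (means 0.31 and 0.97), and those of the other pairs overlap.

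FPKM is scaled by transcript length, which allows the levels of different genes to be ordered. In control tumors the order of mean FPKM was Ptk7 (39.9), Ryk (29.5), Celsr1 (22.1), Vangl1 (15.4), Vangl2 (12.2), Wnt5a (9.52), Wnt5b (4.57), Ror2 (3.85), Wnt11 (1.43) and Ror1 (0.631). Neighbors in this order had separate ranges for Ptk7 and Ryk, for Celsr1 and Vangl1, for Ror2 and Wnt11, and for Wnt11 and Ror1, and overlapped otherwise. In Villin-WlscKO tumors the order was Celsr1 (28.1), Ryk (27.7), Ptk7 (25.6), Vangl1 (15.0), Wnt5a (9.27), Vangl2 (7.15), Ror2 (4.98), Wnt5b (2.25), Wnt11 (0.807) and Ror1 (0.437). Here the ranges of neighbors were separate for Ptk7 and Vangl1, Ror2 and Wnt5b, and Wnt5b and Wnt11. Ptk7 exceeded Ryk in 5 of 5 control tumors and in 2 of 5 Villin-WlscKO tumors. The 3 ligands kept the order Wnt5a, Wnt5b, Wnt11 in 10 of 10 tumors.

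The 3 ligands were also placed among all 11 Wnt genes of the matrix, a description chosen after values had been seen and carrying no test. Together the 11 genes came to 143 ± 20 FPKM in controls against 62.5 ± 10.4 FPKM after deletion (SD, n = 5 each), with separate ranges of 120 to 170 and 47.2 to 73.8 FPKM. Most of the difference lay in Wnt6, at 67.2 against 25.3 FPKM, and Wnt10a, at 50.3 against 13.2 FPKM. Wnt5a, Wnt5b and Wnt11 together were 15.5 ± 5.07 against 12.3 ± 4.16 FPKM, and these sums overlapped. Their share of all Wnt FPKM was 15.6, 7.59, 14.9, 11.5 and 6.0% in the control tumors and 18.5, 21.1, 19.4, 32.8 and 9.0% in the Villin-WlscKO tumors. Villin-WlscKO tumors 1 to 4 were above every control in this share, and tumor 5 lay within the control range. The other 8 Wnt genes, which make up the rest of the sum, were at 128 ± 21.6 against 50.2 ± 10.7 FPKM.

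**Figure D4:**
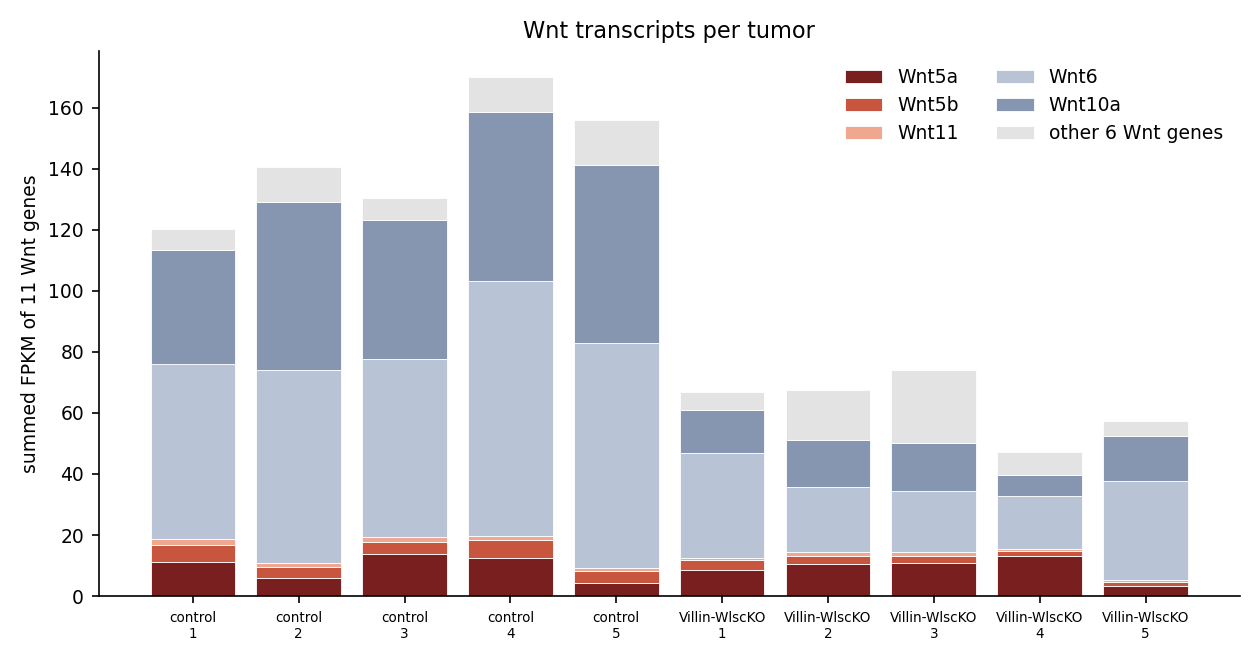
Summed FPKM of the 11 Wnt genes in every tumor, stacked by gene. Totals are 120 to 170 FPKM in controls and 47.2 to 73.8 FPKM after deletion, while Wnt5a, Wnt5b and Wnt11 together take 9.35 to 19.6 and 5.16 to 15.5 FPKM.

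The rest of the pathway was read from 3 lists that hold no member. The core planar polarity list adds the cytoplasmic partners Dvl, Prickle and Scrib and further Celsr and Frizzled genes. Of its 13 genes 10 were tested, and 0 passed as higher and 1 as lower (10%, against 10.9% of all genes tested). The median change was -0.10. An unadjusted p under 0.05, which 25.7% of all genes tested had, was reached by 1 of the 10 above 0 and 3 below 0. Above 0 was Prickle4, with values identical to those of Tomm6 and Gm21981. Below 0 were Fzd6, Dvl3 and the gene that passed. The gene that fell was Dvl2, a Dishevelled adaptor shared by canonical and noncanonical signaling, at 9.13, 10.5, 8.88, 7.79 and 9.21 FPKM in the controls and at 5.70, 8.11, 6.18, 6.09 and 5.24 FPKM in Villin-WlscKO tumors. Villin-WlscKO tumor 2 was within the control range, and the change was -0.48 (SE 0.11, limma adjusted p = 0.0236). Dvl2 lost its call without control tumor 2 or 5 (-0.43 and -0.48, adjusted p = 0.0609 and 0.0552), without Villin-WlscKO tumor 1, 3 or 5 (-0.46, -0.48 and -0.43, adjusted p = 0.0524, 0.0526 and 0.0539), and with equal FPKM sums (-0.37, adjusted p = 0.115). The values of Dvl2 are identical to those of Mir324 in the matrix and its locus overlaps Acadvl, so its reads may not be its own alone. Celsr2, a paralog of Celsr1, had the largest change of the list at 0.50 (SE 0.32, limma adjusted p = 0.368), with Villin-WlscKO tumors 2 and 3 at 7.39 and 7.41 FPKM and the other 8 tumors at 1.56 to 3.70 FPKM.

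The list of polarity effectors and Fat-Dachsous genes had 14 of 16 genes tested, with a median change of 0.11. Of the 14, 2 passed as higher and 0 as lower (14.3%, against 10.9% of all genes tested). At an unadjusted p under 0.05, which 25.7% of all genes tested had, there were 3 of the 14 higher and 0 lower. Wdpcp, which overlaps Mdh1 on the opposite strand, was the third. Rac1, a small GTPase of the cytoskeleton, rose from 334 ± 18.8 to 403 ± 24.9 FPKM (SD, n = 5 each), with no overlap (change 0.27, SE 0.066, limma adjusted p = 0.0256). Rac1 overlaps Daglb. Under quantile normalization its change was 0.07 (adjusted p = 0.380), and it also lost its call without control tumor 2, 4 or 5 (0.25, 0.26 and 0.26, adjusted p = 0.0671, 0.0632 and 0.0650) and without Villin-WlscKO tumor 3 or 5 (0.24 and 0.27, adjusted p = 0.0611 and 0.0543), or without tumors 2 and 3 together (0.25, adjusted p = 0.0954). Intu, an effector needed for cilia, went from 1.22 ± 0.239 to 1.99 ± 0.334 FPKM (change 0.43, SE 0.12, limma adjusted p = 0.0454), and passed in 8 of 20 alternatives. It kept its call in only 2 of the 10 fits that leave out a single tumor, those without control tumor 3 or Villin-WlscKO tumor 2, and its changes over the 10 lay between 0.38 and 0.49. Fjx1, a relative of the Fat-Dachsous regulator four-jointed, had the largest change of the list at 0.57 (SE 0.32, limma adjusted p = 0.290), again with Villin-WlscKO tumors 2 and 3 highest, at 2.36 and 2.22 FPKM against at most 0.458 FPKM elsewhere.

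In the Wnt-calcium list, which covers phospholipase C, CaMKII, protein kinase C, calcineurin and NFAT genes, all 15 genes were tested, 1 rose and 1 fell (13.3%, against 10.9% of all genes tested), and the median change was 0.03. Nfatc4, a calcium-responsive transcription factor, fell from 6.84, 6.63, 7.36, 10.2 and 11.5 FPKM in the control tumors to 2.32, 3.25, 2.66, 2.43 and 1.92 FPKM in the Villin-WlscKO tumors. The groups were far apart, with a change of -1.42 (SE 0.16, limma adjusted p = 4.90e-04) that passed in 21 of 21 alternatives. Prkca, the alpha form of protein kinase C, rose from 6.02 ± 1.57 to 10.8 ± 2.99 FPKM (change 0.74, SE 0.19, limma adjusted p = 0.0292), with Villin-WlscKO tumor 2 at 8.18 FPKM below the highest control at 8.67 FPKM. Prkca overlaps Apoh, and it lost its call without control tumor 1, 4 or 5 (0.70, 0.68 and 0.72, adjusted p = 0.0651, 0.0719 and 0.0667) or without Villin-WlscKO tumor 1 or 3 (0.74 for either, adjusted p = 0.0557 and 0.0621), as well as without Villin-WlscKO tumors 2 and 3 together (0.85, adjusted p = 0.0571).

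**Figure D5:**
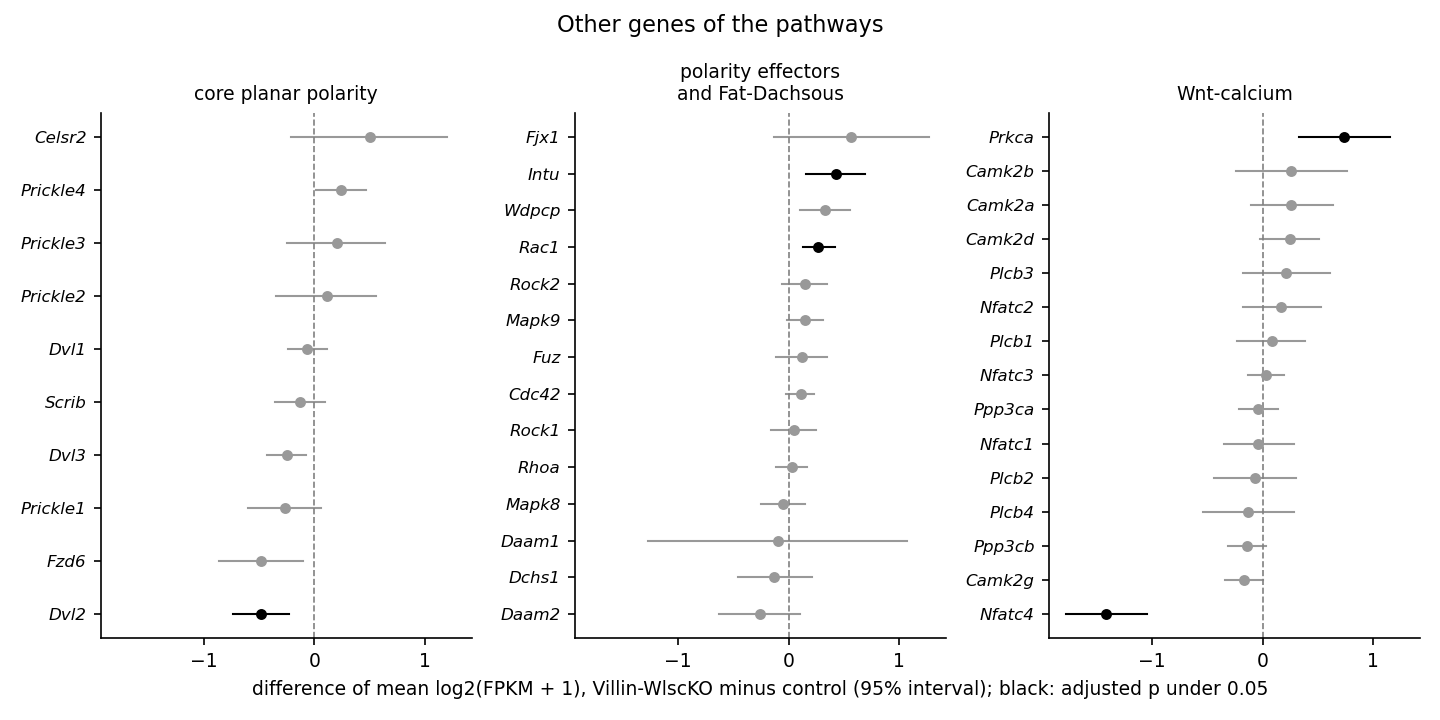
Change of each tested gene of the 3 pathway lists as Villin-WlscKO minus control in log2(FPKM + 1), with 95% intervals and black marks for an adjusted p under 0.05. Nfatc4 stands lowest at -1.42, and most other genes of the 3 lists have intervals that include 0.

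Markers of the cell types that a macrodissected tumor can hold were read in the same tumors. Epithelial markers summed to 6584 to 9544 FPKM in controls and 8233 to 11744 FPKM in Villin-WlscKO tumors. All 9 changes were above 0 and 0 genes were past the limma test, against 10.9% of all genes tested (median change 0.30). However, 4 of the 9 (Krt8, Vil1, Cdx1 and Cdx2) had an unadjusted p under 0.05, against 25.7% of all genes tested. Krt19, at 2317 to 3649 and 2400 to 4525 FPKM of these sums, has values identical to those of Krt13 and Krt17, keratins found in squamous epithelium, and without it the sums were 4267 to 5895 and 5394 to 8191 FPKM. Fibroblast markers summed to 286 to 1025 and 384 to 1170 FPKM, with 0 of 8 genes past the test and 6 of 8 changes above 0. Smooth muscle markers (64.9 to 151 and 83.2 to 163 FPKM, 6 genes) and endothelial markers (18.9 to 46.2 and 18.2 to 49.0 FPKM, 5 genes) also had 0 genes past the test, and none of the fibroblast, smooth muscle and endothelial genes had an unadjusted p under 0.05. Leukocyte markers were 69.3 to 295 FPKM in controls and 206 to 519 FPKM in Villin-WlscKO tumors. Most of these sums was S100a8 alone, at 55.1 to 277 and 189 to 487 FPKM. Of the 6 genes 1 passed (16.7%, against 10.9% of all genes tested). It was the T cell gene Cd3e (change 0.61, limma adjusted p = 0.0138). At an unadjusted p under 0.05, which 25.7% of all genes tested had, 4 of 6 were higher, Cd3e, Ptprc, Cd79a and S100a8. The macrophage genes Adgre1 and Csf1r had changes of -0.01 and 0.05. Squamous markers were 80.3 to 192 FPKM in controls and 113 to 1369 FPKM in Villin-WlscKO tumors, highest in tumors 2 and 3 at 1088 and 1369 FPKM, and 1 of 5 genes passed, Sprr1a (change 1.52, limma adjusted p = 0.0302). Sprr1a lost its call without control tumor 2 or 4 (1.44 and 1.56, adjusted p = 0.0730 and 0.0590), without Villin-WlscKO tumor 1, 2, 3 or 4 (1.49, 1.49, 1.47 and 1.55, adjusted p = 0.0600, 0.0580, 0.0704 and 0.0522), without tumors 2 and 3 together (1.41, adjusted p = 0.131), and with tumor quality weights (1.31, adjusted p = 0.0645). No listed marker was under 0.5 FPKM in every tumor. Their part in the changes of Wnt5b, Ptk7 and Vangl2 was not tested.

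For each member that fell, the 3 tested genes with the most similar profile were found by the root mean square difference between centered log2(FPKM + 1) values over the 10 tumors. Nearest to Wnt5b were Mxra7 (0.117), Slc36a4 (0.178) and Gm9169 (0.180). Nearest to Ptk7 were Dact3 (0.108), Kremen1 (0.116) and Tbxa2r (0.120). Vangl2 was closest to Echdc2 (0.124), Spsb2 (0.140) and Maged2 (0.141). These distances are descriptions over 10 tumors that share 2 groups. Genes picked this way must change much as their member does. The changes of the 9 genes, between -0.83 for Echdc2 and -0.52 for Tbxa2r, therefore follow from the choice.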

How the data were processed

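RNA of 10 macrodissected, fresh frozen colon tumors had been sequenced from TruSeq Stranded mRNA libraries. The authors mapped the reads to GRCm38.p5 with TopHat2 2.1.1, quantified transcripts with Cufflinks 2.2.1 and deposited FPKM values, 1 column per tumor, with no read counts. The deposited FPKM values sum to 1265992 to 1533885 in control and 1207683 to 1341494 in Villin-WlscKO tumors, and depth and its precision are unknown. Of 16875 gene names, 2419 share all their values with another name, none of them a member.

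Groups and numbers were taken from the sample titles. Values were tested as log2(FPKM + 1) with limma 3.58.1 in R 4.3.3 (eBayes with trend, two-sided, genes with a mean of at least 0.5 FPKM, adjusted p under 0.05). This limma fit was also run on simulated data, in which genes were drawn independently of each other. Pairs of genes were compared by exact permutation in Python 3.11.15 with numpy 2.4.6. Gene positions are from GENCODE M21 and promoter windows from RefSeq. Alternatives changed the pseudocount, scaling, filter, variance model and tumors used.

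The members and lists were chosen with earlier results of these data known. Genes named besides the members are Wls, those of each pathway list past the threshold or with the 2 largest absolute changes, the 3 most similar to each member that fell, and Xist, Eif2s3y and Krt5. Fbxl14, Fzd6, Dvl3, Prickle4, Wdpcp, the markers named singly and the other Wnt genes were named after their values were seen. A further marker list is not reported here.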

Additional observations from a re-analysis of the deposited data

Results flagged for a closer look

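In 3 of the 20 sets of 5 tumors (10 genes in 2 groups), a tumor stood farther from the rest than Dixon's critical value of 0.71 for 5 samples, taken as the gap to the nearest tumor over the whole range. Chance alone sets apart about 1 in 20 such sets. Control tumor 1 had the lowest Ror1 of its group, at 0.290 FPKM (gap over range 0.728). Villin-WlscKO tumor 3 had the lowest Ryk of its group, at 25.4 FPKM (0.797). Control tumor 3 had the highest Celsr1 of its group, at 33.3 FPKM (0.833), and Celsr1 passed the test without that tumor.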

How the results depend on the processing

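Ptk7 and Vangl2 kept direction and call in 21 of 21 alternatives, and Wnt5b in 19 of 20. The number of genes past the threshold was 1822, and 1092 without Villin-WlscKO tumors 2 and 3, where fewer tumors were tested (1231 to 1983 leaving out single tumors). Without those 2 tumors Wnt5b was at -0.89 (adjusted p = 0.0501), the shift between Vangl1 and Vangl2 at 0.49 (exact permutation adjusted p = 0.0536, the lowest a single pair can reach there), and the lists had 2 (core polarity), 0 (effectors) and 1 (Wnt-calcium) called genes. With equal FPKM sums, which moved the median of all genes to 0.0972, Wnt5a was at 0.07, Ryk at 0.02, Vangl1 at 0.06 and the core list at 0 called genes. Tumor quality weights put Wnt5a at 0.16 and the core list at 2 genes, and quantile normalization put the core list at 2 and the effectors at 0. The effectors had 1 gene with a mean of at least 5 FPKM, and 1 with robust eBayes. As log2 ratios of means and of medians, Wnt11 was at -0.83 and -0.93 and Ror1 at -0.53 and -0.45. A pseudocount of 0.1 gave 0.99 for Wnt5a against Wnt5b (exact permutation adjusted p = 0.0476). Leaving out single tumors gave -0.25 to 0.25 for Wnt5a, -0.12 to 0.02 for Vangl1, 0.31 to 0.52 for Celsr1, 0.57 to 0.94 for Wnt5a against Wnt5b, -0.62 to -0.38 for Ror1 against Ror2, 0 to 2 genes for the core list, 0 to 2 for the effectors and 1 to 2 for Wnt-calcium. Except where stated, the cause was not tested.

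Over all genes tested, the deviations of tumors of the same number were weakly correlated (r = 0.064, -0.087, 0.063, 0.10 and 0.16 for numbers 1 to 5). The titles state no pairing, so the numbers were treated as names of tumors. Whether tumors of the same number shared a batch was not tested. With the replicate number as a block, 1627 genes passed, the effectors and the Wnt-calcium list had 1 called gene each (Intu at an adjusted p of 0.0783 and Prkca at 0.0711 lost theirs, as did Sprr1a at 0.0657), and the shift between Vangl1 and Vangl2 was 0.66 (exact permutation adjusted p = 0.0938). Swaps within 5 numbers allow no p under 0.0625, so no pair could pass with the block. The block changed no call of a member. Depth is unknown, so the low values of Ror1 and Wnt11 carry an unmeasured counting error.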
